A study of Mus musculus with 7 samples.

Results

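The 9 genes examined here encode proteins with which the retinal pigment epithelium (RPE) moves ions and water. They are the potassium channel *Kcnj13*, the sodium-potassium ATPase subunit *Atp1b1*, the anion channels *Best1* and *Clcn2*, the cotransporter *Slc12a2*, the water channel *Aqp1*, the carbonic anhydrase *Car14* and the cation channels *Trpm1* and *Trpm3*. They were chosen by name for this role, with no threshold on a measured value. All 9 were found among the 52740 gene identifiers of the count table, and all 9 were among the 16990 genes that passed the filter on low counts.

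Messenger RNA was sequenced from RPE of 4 WT mice (C57BL6/J, females F1, F2 and F3 and male M1) and 3 *LC3b-/-* mice (B6;129P2-Map1Lc3btm1Mrab/J, females F1 and F3 and male M). All were labelled 24 months old, each mouse gave 1 library, and no treatment was named. In the sample names, the *LC3b-/-* male carries another number than *LC3b-/-* F1 and F3, whereas all WT mice share one number. What the number stands for is not given. Where *LC3b-/-* M differs from the *LC3b-/-* females, sex and this number therefore cannot be told apart. The knockout is carried in every cell of the animal, so other ocular cells lack LC3b too, and the strain names differ between the groups, so genotype and strain background cannot be told apart. RPE sheets were detached enzymatically from eyecups after the cornea, ciliary body, lens and neural retina had been taken away.

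Summed counts ranged from 24495952 to 35616134 per library. The deleted gene *Map1lc3b*, which encodes the autophagy protein LC3b, had 4444, 2832, 2778 and 2865 counts in the WT libraries and 168, 332 and 229 counts in the *LC3b-/-* libraries, in the direction of the labels. All 13 RPE markers were detected in every library. Their summed level was 34005 to 53892 CPM in WT and 14637, 17716 and 32090 CPM in the *LC3b-/-* libraries, without overlap between groups. Taken singly, 6 of the 13 markers had groups that did not overlap, beside 10.3% of all genes tested on the lower side. CPM are a gene's counts per 1000000 counts of its library, scaled by the trimmed mean of M-values (TMM). Values of single libraries are listed in the order F1, F2, F3, M1 for WT and F1, F3, M for *LC3b-/-* throughout. In these bulk samples, fewer RPE cells and less RNA per RPE cell cannot be told apart.

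The RPE is a single layer of pigmented cells between the photoreceptors and the blood vessels of the choroid. It carries chloride from the retinal side to the blood side, and water follows, which keeps the retina attached and the space around the photoreceptors at a stable volume. The sodium-potassium ATPase of the RPE sits on the apical membrane, facing the photoreceptors, and sets the sodium gradient that *Slc12a2* (NKCC1) uses to take up chloride. *Kcnj13* (Kir7.1) returns potassium through the same membrane, and chloride leaves through channels on the basal side. Carbonic anhydrases interconvert carbon dioxide and bicarbonate, which is also carried across the layer.

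*Trpm3* and *Trpm1* each host a microRNA gene within an intron and on their own strand. *Mir204* lies in *Trpm3* at chr19:22727969-22728036 and *Mir211* lies in *Trpm1* at chr7:63855554-63855659 (GRCm39). Their 5p mature sequences are shown because they tie the 2 TRPM genes together. The capitals mark the seed (bases 2 to 8), which both share (RefSeq).
mmu-miR-204-5p: uUCCCUUUgucauccuaugccu
mmu-miR-211-5p: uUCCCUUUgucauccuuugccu
The sequences were identical at 21 of 22 positions and differed by A17U, counted from the 5′ end with the base of miR-204-5p first. Both miRNA genes had 0 counts in all 7 libraries, which were made from polyadenylated RNA, so neither miRNA was measured and only the host transcripts were read.

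Promoter windows reaching from 250 bases before to 50 bases after a start site were taken from RefSeq (GRCm38.p6) for 8 of the 9 genes, with 10 windows in all. *Slc12a2* was left out of this search, so nothing is said of its promoter. Each window was searched on both strands for TAATCC (the core bound by OTX2), CATGTG (the M-box bound by MITF) and CACGTG (the E-box), and no match overlapped another. OTX2 and MITF are transcription factors of the RPE lineage. TAATCC was present for *Car14*, *Best1* and *Trpm1*, CATGTG for *Kcnj13* and *Trpm1*, and CACGTG for *Trpm1*, while the windows of 4 genes (*Trpm3*, *Atp1b1*, *Aqp1* and *Clcn2*) held none of these letters. Of 32851 RefSeq windows of this length, 7.06% held TAATCC, 14.2% held CATGTG and 7.15% held CACGTG. The 250 bases before the start of 3 genes are shown with the matches in capitals. *Kcnj13* and *Car14* had the lowest *LC3b-/-* levels relative to WT, and *Best1* carried the same letters as *Car14* at a far lower level of RNA.
Kcnj13 (chr1:87394730-87394979, GRCm38.p6, minus strand): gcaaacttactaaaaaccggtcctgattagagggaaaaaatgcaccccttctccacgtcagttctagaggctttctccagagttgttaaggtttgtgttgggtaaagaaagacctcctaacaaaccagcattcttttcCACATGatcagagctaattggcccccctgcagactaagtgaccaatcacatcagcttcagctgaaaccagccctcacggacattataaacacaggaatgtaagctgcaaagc
Car14 (chr3:95904686-95904935, GRCm38.p6, minus strand): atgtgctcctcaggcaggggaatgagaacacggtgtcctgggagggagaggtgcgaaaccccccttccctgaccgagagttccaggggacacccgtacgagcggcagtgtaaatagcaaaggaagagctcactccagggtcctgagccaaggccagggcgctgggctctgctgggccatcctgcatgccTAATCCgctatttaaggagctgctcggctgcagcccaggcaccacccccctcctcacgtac
Best1 (chr19:10001634-10001883, GRCm38.p6, minus strand): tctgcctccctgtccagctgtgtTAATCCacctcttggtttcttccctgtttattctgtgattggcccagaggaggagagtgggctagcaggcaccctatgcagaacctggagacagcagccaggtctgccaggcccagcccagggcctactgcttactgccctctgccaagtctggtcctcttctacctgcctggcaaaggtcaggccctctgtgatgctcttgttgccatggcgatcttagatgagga
The match began 112 bases before the start in *Kcnj13*, 61 bases in *Car14* and 227 bases in *Best1*. A match of 6 letters is a description of the window and was not tested as a binding site.

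The question put to these genes was whether RPE that lacks LC3b holds different amounts of their RNA. No member was called by edgeR's quasi-likelihood test (a fold of 1.5 or more with an adjusted p below 0.05), a rule that 0.235% of the genes tested passed. *Kcnj13*, *Car14* and *Trpm3* lay lowest, at 44.0%, 54.2% and 60.1% of their WT means. All 3 had an unadjusted p under 0.05, all on the lower side, beside 10.6% of all genes tested on that side and 24.1% on either side. For *Kcnj13* and *Trpm3*, every *LC3b-/-* library was below every WT library, which held on the lower side for 10.3% of all genes tested. The median log2 fold change of the 9 members was -0.36, beside 0.01 for all genes tested. DESeq2's Wald test called *Kcnj13*, *Car14* and *Trpm3* as lower. It called 1.95% of the 28835 genes with a count lower and 6.28% in either direction. Those genes include ones that failed the filter on low counts, so these shares are not like for like with the members. Limma's voom called no member and 0.730% of all genes tested.

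**Figure D1:**
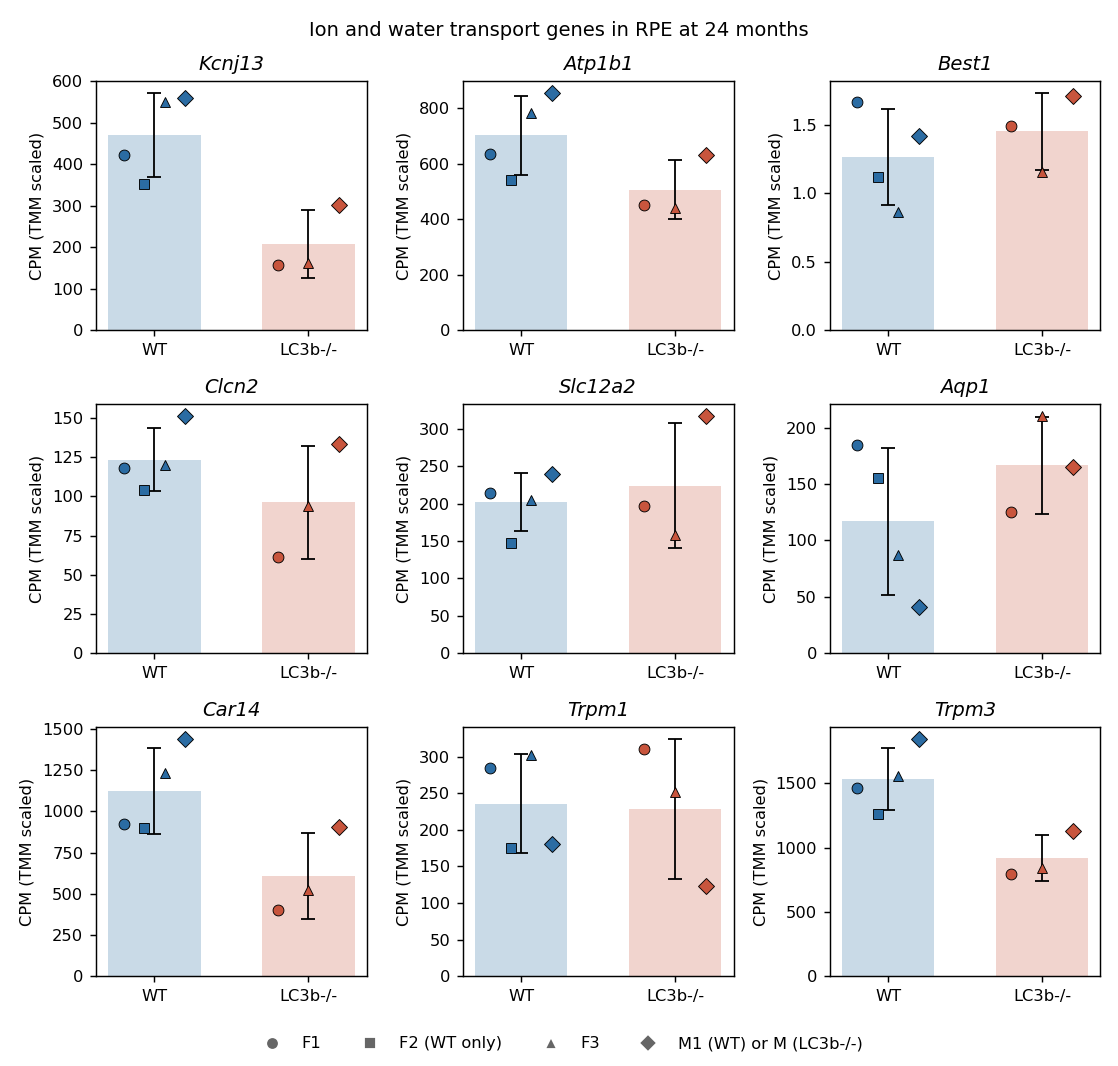
TMM-scaled CPM of the 9 genes in each library (vertical axes start at 0 and differ between panels), with bars for the group mean, error bars for the SD (4 WT, 3 *LC3b-/-*) and one symbol per mouse. The *Kcnj13* and *Trpm3* panels show no overlap between groups, and the *LC3b-/-* male lies nearest to WT for *Kcnj13*, *Atp1b1*, *Clcn2*, *Car14* and *Trpm3*.

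Levels were compared between genes only per length, as TMM-scaled CPM per kb of the mean annotated protein-coding transcript (GENCODE vM39). In WT, *Car14* stood at 511 ± 118 CPM per kb (SD, n = 4), *Trpm3* at 341 ± 53.8, *Atp1b1* at 317 ± 64.1 and *Kcnj13* at 158 ± 33.7. *Trpm1* followed at 81.6 ± 23.4, *Aqp1* at 39.8 ± 22.2, *Clcn2* at 34.0 ± 5.50 and *Slc12a2* at 26.2 ± 5.04, and *Best1* was last at 0.666 ± 0.185 CPM per kb. Neighbours in this order overlapped in their WT libraries except at 3 places: *Atp1b1* lay above *Kcnj13*, *Kcnj13* above *Trpm1*, and *Slc12a2* above *Best1*. *Car14* and *Best1* kept the first and last place when the union of all annotated exons was used as the length. The TRPM genes depended on that choice, as their exon unions are long (17.7 kb for *Trpm1* and 24.7 kb for *Trpm3*, against mean transcripts of 2.88 kb and 4.49 kb). *Trpm3* then stood below *Atp1b1* and *Kcnj13* at 62.1 ± 9.80 CPM per kb, and *Trpm1* below every gene but *Best1* at 13.3 ± 3.81 CPM per kb.

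**Figure D2:**
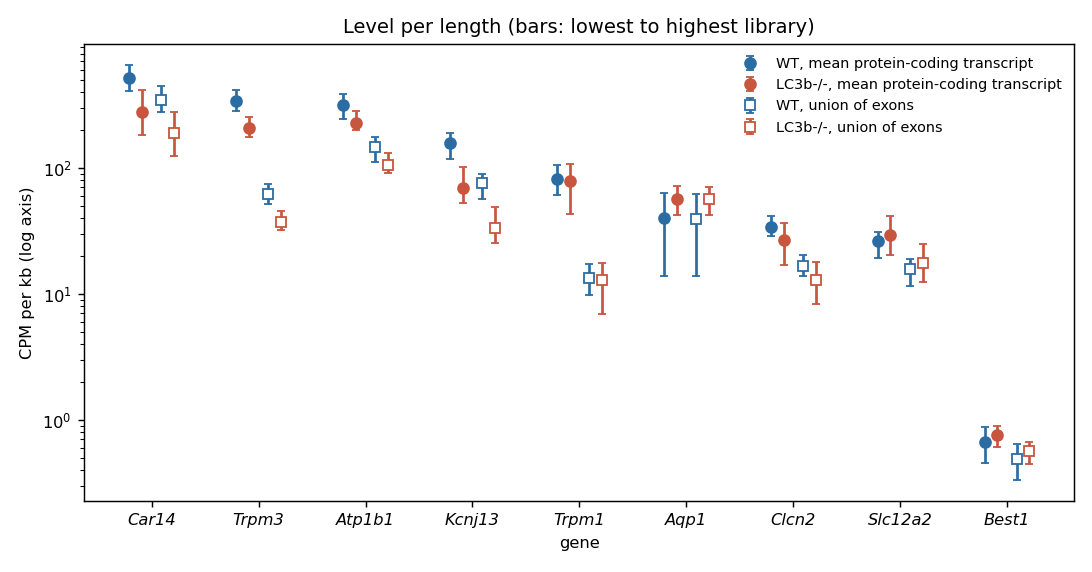
Level per kb of the 9 genes on a log axis, for WT and *LC3b-/-* and for both ways of measuring length, with points for the group mean and bars from the lowest to the highest library. *Best1* lies apart from the other 8 genes under both lengths, and *Trpm3* and *Trpm1* move down when all exons are counted.

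*Kcnj13* (ENSMUSG00000079436, chr1:87309135-87322456, minus strand, GRCm39) encodes the apical inward rectifier of the RPE. Its level was 422.7, 352.8, 549.7 and 559.9 CPM across WT mice and 157.8, 162.6 and 301.8 CPM across *LC3b-/-* mice. The *LC3b-/-* females were nearly alike and the male was closest to WT, and the groups did not overlap. The log2 fold change was -1.18 ± 0.29 (SE, n = 4 and 3), with a 95% interval of -1.87 to -0.50 and an adjusted p of 0.0975 by edgeR. The exact two-sided permutation test of log2 CPM gave p = 0.0286, the smallest that the 35 possible allocations of 7 libraries allow. DESeq2 put the fold change at -1.21 with an adjusted p of 0.00186. Without *LC3b-/-* M, edgeR also called *Kcnj13*, at -1.56 and an adjusted p of 0.0385, beside 2.76% of all genes tested against 0.235% with all libraries, and over the 17 alternatives its adjusted p ranged from 0.00186 to 0.406. The gene lies inside *Gigyf2*, which is on the opposite strand and had 1027 to 2071 counts per library. The kit marks strand, but the strand setting of the counting is not given in the sources used here. *Atp1b1* (with *Nme7* and *Gm32391*), *Clcn2* (with *Polr2h* and *Fam131a*) and *Car14* (with *Aph1a*) also overlap genes on the opposite strand.

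*Atp1b1* (ENSMUSG00000026576, chr1:164264678-164285957, minus strand) encodes the beta subunit that carries the sodium-potassium ATPase to the membrane. It had 634.4, 540.4, 782.6 and 855.5 CPM across WT mice and 450.5, 440.2 and 630.2 CPM across *LC3b-/-* mice. The *LC3b-/-* females were below all WT libraries and the male lay among them. A log2 fold change of -0.47 ± 0.22 was obtained, with a 95% interval of -0.995 to 0.05 (adjusted p = 0.244 by edgeR; exact permutation p = 0.114).

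*Best1* (ENSMUSG00000037418, chr19:9962538-9978997, minus strand) encodes bestrophin-1, a calcium-activated anion channel of the basolateral membrane. Only 23 to 58 counts were assigned to it per library, or 1.67, 1.12, 0.861 and 1.42 CPM across WT mice and 1.49, 1.15 and 1.71 CPM across *LC3b-/-* mice. These levels were near 1 CPM in every library, and the groups overlapped. The log2 fold change was 0.19 ± 0.35, and its 95% interval of -0.63 to 1.02 holds both a fall and a rise by the called fold of 1.5. No difference was detectable at this depth (edgeR, adjusted p = 0.768).

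*Clcn2* (ENSMUSG00000022843, chr16:20521714-20536496, minus strand) encodes ClC-2, a chloride channel opened by hyperpolarization. Its level was 118.1, 104.0, 120.2 and 151.4 CPM across WT mice and 61.5, 94.2 and 133.3 CPM across *LC3b-/-* mice. The *LC3b-/-* libraries spread over a wider range than the WT libraries, and the male again lay within WT. This gave a log2 fold change of -0.36 ± 0.26, with a 95% interval of -0.97 to 0.25 (edgeR, adjusted p = 0.429).

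*Slc12a2* (ENSMUSG00000024597, chr18:58011164-58080812, plus strand) encodes the sodium-potassium-chloride cotransporter NKCC1. It had 214.5, 147.6, 205.2 and 239.4 CPM across WT mice and 196.4, 157.5 and 317.1 CPM across *LC3b-/-* mice. The *LC3b-/-* females lay within the WT range and the male above it. Its log2 fold change of 0.15 ± 0.27 had a 95% interval of -0.48 to 0.78 (edgeR, adjusted p = 0.763), and without *LC3b-/-* M it was -0.19.

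*Car14* (ENSMUSG00000038526, chr3:95805079-95812646, minus strand) encodes a carbonic anhydrase anchored in the membrane with its active site outside the cell. Its level was 923.9, 897.7, 1230.4 and 1440.0 CPM across WT mice and 401.3, 523.3 and 902.4 CPM across *LC3b-/-* mice. The *LC3b-/-* females were well below WT, while the male just exceeded WT F2. The difference on the log2 scale was -0.88 ± 0.32, with a 95% interval of -1.64 to -0.13 (adjusted p = 0.164 by edgeR; exact permutation p = 0.0571). DESeq2 gave -0.91 with an adjusted p of 0.0454, the lowest over the alternatives, whose highest was 0.845.

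*Aqp1* (ENSMUSG00000004655, chr6:55313068-55325540, plus strand) encodes a water channel that is also abundant in endothelium and red blood cells. It had 184.6, 155.3, 86.8 and 41.1 CPM across WT mice and 124.9, 210.4 and 164.6 CPM across *LC3b-/-* mice. The spread within WT was wider than the distance between the group means, and *Aqp1* was lowest in WT M1. For the group means this gave a log2 fold change of 0.51 ± 0.47, with a 95% interval of -0.59 to 1.61 (edgeR, adjusted p = 0.536). The summed level of 9 endothelial markers, all detected in every library, was 1250, 1115, 495 and 398 CPM across WT mice and 1613, 1668 and 1425 CPM across *LC3b-/-* mice. All 9 endothelial markers had positive log2 fold changes, 3 of them with an unadjusted p under 0.05 and 0 called. In WT, these markers ran from high to low in the same order of libraries as *Aqp1*. In *LC3b-/-* they did not, with *Aqp1* lowest in F1 and the markers lowest in M. Erythrocyte markers summed to 182, 521, 286 and 542 CPM across WT mice, highest in M1, where *Aqp1* was lowest. Across *LC3b-/-* mice they summed to 662, 306 and 216 CPM. The part of either cell type in the *Aqp1* values was not tested.

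*Trpm3* (ENSMUSG00000052387, chr19:22116410-22972774, plus strand) encodes a cation channel that passes calcium and is opened by heat and by the steroid pregnenolone sulfate. Its level was 1463, 1263, 1553 and 1845 CPM across WT mice and 794.0, 838.6 and 1126 CPM across *LC3b-/-* mice. Every *LC3b-/-* library was below every WT library. On the log2 scale the difference was -0.74 ± 0.21, with a 95% interval of -1.23 to -0.24 (adjusted p = 0.115 by edgeR; exact permutation p = 0.0286). DESeq2 gave -0.76 with an adjusted p of 0.00779, and the alternatives ranged from there to 0.347.

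*Trpm1* (ENSMUSG00000030523, chr7:63803583-63922019, plus strand) encodes a cation channel of pigment cells and of ON bipolar cells, where it carries the light response. It had 284.7, 174.6, 302.2 and 180.3 CPM across WT mice and 310.8, 251.0 and 123.1 CPM across *LC3b-/-* mice. The order of the *LC3b-/-* libraries was the reverse of that of *Kcnj13*, *Car14* and *Trpm3*, with the male lowest. The log2 fold change was -0.04 ± 0.35, and its 95% interval of -0.86 to 0.77 leaves room for the called fold in both directions (edgeR, adjusted p = 0.953). The 10 ON bipolar cell markers summed to 54.7 to 120 CPM in WT and 80.7 to 140 CPM in *LC3b-/-*, and *Grm6*, their defining receptor, was at 0 in WT M1 and *LC3b-/-* F1, where *Trpm1* was at 180.3 and 310.8 CPM. The 6 melanocyte markers summed to 267 to 1001 CPM in WT and to 180 to 207 CPM in *LC3b-/-*, and their part in the *Trpm1* values was not tested.

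The RPE marker list ran alongside several of these genes. All 13 RPE markers had negative log2 fold changes, from -1.58 to -0.43 with a median of -0.90, 10 of them with an unadjusted p under 0.05 and 0 called by edgeR. Relative to the WT mean, the mean log2 level of the 13 markers was -1.49 in *LC3b-/-* F1, -1.14 in F3 and -0.33 in M. *Kcnj13* differed from its own WT mean by -1.55, -1.51 and -0.62 in the same libraries, *Car14* by -1.46, -1.07 and -0.29, and *Trpm3* by -0.93, -0.86 and -0.43. *Car14* followed the markers most closely. Its log2 level minus that of the markers lay between -0.02 and 0.04 in WT and between 0.04 and 0.07 in *LC3b-/-*.

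**Figure D3:**
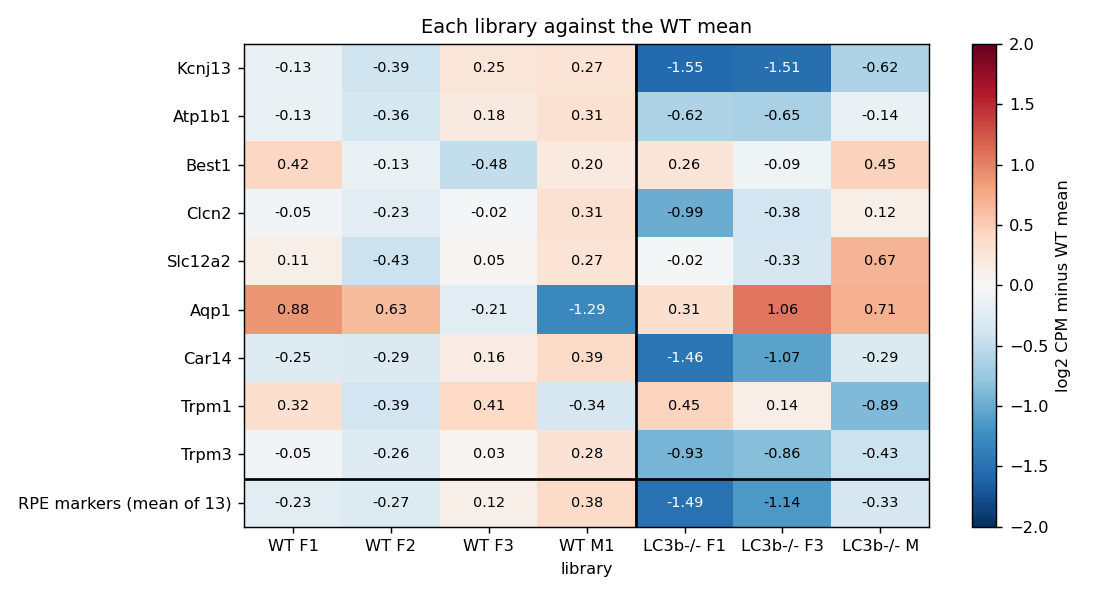
Log2 CPM of each gene in each library minus its WT mean, with the mean of the 13 RPE markers in the bottom row (colour scale from -2 to 2, values printed in the cells). *LC3b-/-* F1 and F3 are low and *LC3b-/-* M is nearer to the WT mean for *Kcnj13*, *Car14*, *Trpm3* and the markers. *Trpm1*, *Aqp1*, *Best1* and *Slc12a2* do not follow that order. For *Kcnj13*, *Trpm3* and the markers, *LC3b-/-* M is still below every WT library.

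When the libraries were scaled to the 13 RPE markers in place of TMM, the median log2 fold change of all genes tested moved from 0.01 to 1.04, so member values on this scale are to be read against that shift. *Kcnj13* stood at -0.24 (95% interval -0.79 to 0.31), *Car14* at 0.050 (-0.44 to 0.54) and *Trpm3* at 0.27 (-0.28 to 0.82), and none of these intervals excludes 0. The other 6 members stood at 0.54 for *Atp1b1*, 0.58 for *Clcn2*, 1.11 for *Slc12a2*, 1.14 for *Trpm1*, 1.18 for *Best1* and 1.404 for *Aqp1*. *Slc12a2* was called on this scale (edgeR, adjusted p = 0.0371, with 0.965 the highest over all alternatives), beside 39.1% of all genes tested. The groups did not overlap for *Atp1b1*, *Clcn2*, *Slc12a2* and *Best1*, with *LC3b-/-* on the upper side, as for 43.7% of all genes tested. The direction of *Car14*, *Trpm3*, *Atp1b1*, *Clcn2* and *Trpm1* therefore depended on whether a gene was read against all RNA or against the RPE markers, and 8 of the 9 members, all but *Slc12a2*, were called under neither scaling.

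**Figure D4:**
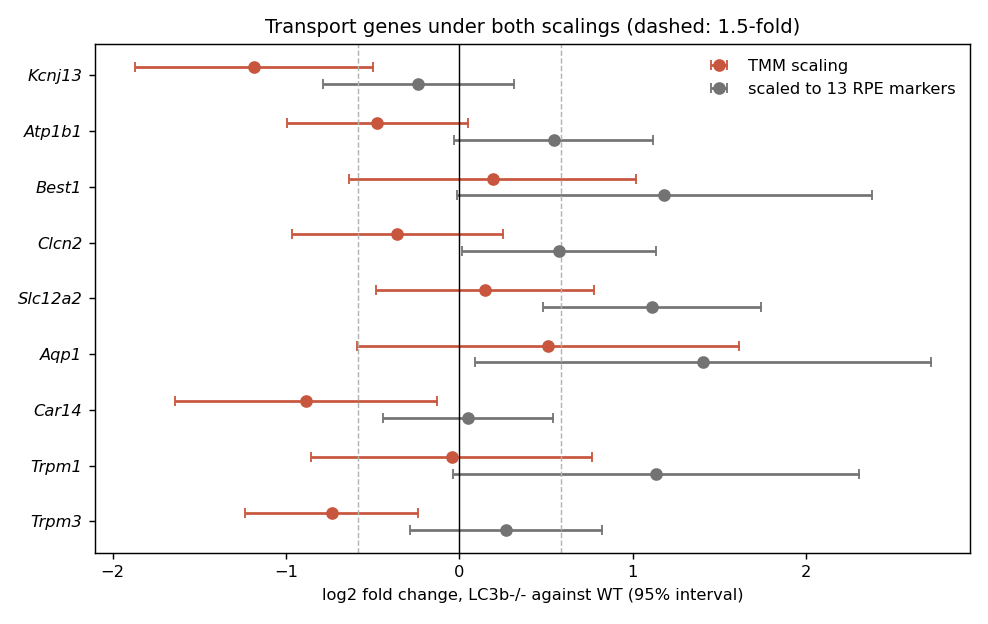
Log2 fold change of *LC3b-/-* against WT with its 95% interval for each gene, under TMM scaling and under scaling to 13 RPE markers (dashed lines at 1.5-fold). Under TMM the intervals of *Kcnj13*, *Car14* and *Trpm3* lie below 0, and under marker scaling they include it.

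The other members of the same gene families were read from a list of 212 genes in 19 families, of which 164 were tested. With TMM scaling, edgeR called 1 of the 164, and it called 0 when any library other than WT F1 or *LC3b-/-* M was left out.

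Of the 164 family genes, 38 had an unadjusted p under 0.05 on the higher side and 9 on the lower side, beside 13.5% and 10.6% of all genes tested. Among the 91 family genes with a mean of at least 10 CPM over the 7 libraries, 19 were on the higher side and 9 on the lower side, beside 14.4% and 13.9% of all genes at that level. DESeq2 called 27 of the 164, 22 of them higher. Its own set had no filter on low counts. There it called 28 of 206 family genes (13.6%), beside 6.28% of all 28835 genes with a count. Its share over the filtered genes was not computed, so the 27 of 164 have no like share beside them.

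Family genes on the lower side included transport proteins at high levels in WT. *Clic6*, a chloride intracellular channel protein, was at 1087 ± 357 CPM in WT against 559 ± 211 CPM in *LC3b-/-*, a log2 fold change of -0.96 ± 0.34 (edgeR, adjusted p = 0.155). *Clcn3*, an endosomal chloride-proton exchanger, had 176 ± 29.0 and 113 ± 31.9 CPM (-0.64). *Trpv4*, a calcium-permeable channel sensitive to osmotic swelling, had 82.0 ± 16.6 and 50.1 ± 15.3 CPM (-0.71). *Slc4a10*, a sodium-coupled bicarbonate transporter, stood at -0.98, the calcium channel subunit *Cacnb1* at -0.66, the carbonic anhydrase-related protein *Car11* at -0.68 and the adenosine receptor *Adora1* at -0.23. For *Clic6*, *Slc4a10*, *Car11* and *Adora1* the groups did not overlap. On the lower side this held for 7 of the 164 family genes, beside 10.3% of all genes tested. The genes named here were picked for a small p, so their lack of overlap is not separate support. Scaled to the RPE markers, these 7 genes stood between -0.002 and 0.80, below the shift of 1.04 for all genes.

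On the higher side, *Kcne3* and *Atp1a4* had under 10 counts in every WT library. *Aqp3*, a water and glycerol channel of surface epithelia, had 36.0, 20.9, 0.2995 and 85.9 CPM across WT mice and 618, 193 and 127 CPM across *LC3b-/-* mice, a log2 fold change of 3.13 ± 1.28 (edgeR, adjusted p = 0.195). The groups did not overlap, and *LC3b-/-* F1 was far above the rest. No overlap was seen for 28 of the 164 family genes on the higher side and for 7 on the lower side. Among all genes tested it was seen for 22.3% with both sides counted and for 10.3% on the lower side. Without *LC3b-/-* F1 the log2 fold change was 2.16, and without WT M1 it was 4.03. Markers of ocular surface epithelium summed to 512, 393, 5.84 and 2122 CPM across WT mice and to 16724, 4023 and 2126 CPM across *LC3b-/-* mice. All 9 of these markers had positive log2 fold changes, 5 with an unadjusted p under 0.05 and 0 called. The order of the libraries was that of *Aqp3* in both groups, and the part of these cells in the values was not tested.

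Of the other genes with the smallest p in their family on the higher side, *Clic1* stood at 34.5 ± 8.46 CPM in WT against 93.1 ± 36.4 CPM in *LC3b-/-* (a log2 fold change of 1.43). The mitochondrial carbonic anhydrase *Car5b* had 7.64 ± 0.738 and 21.1 ± 8.80 CPM (1.46), and *P2ry2*, an ATP receptor that stimulates fluid absorption by the RPE, had 6.81 ± 2.54 and 24.3 ± 10.6 CPM (1.83). *Trpm6*, a magnesium channel of the TRPM family, had 3.53 ± 0.813 and 20.3 ± 12.1 CPM (2.52). For these 4 genes the groups did not overlap, as for 28 of the 164 family genes on the higher side and 7 on the lower side. Over all genes tested, 22.3% had no overlap with both sides counted and 10.3% on the lower side. Their adjusted p was 0.0842 to 0.0906 by edgeR, which called none of them with all libraries. By DESeq2 it was at most 0.000605, and all 4 were called, beside 6.28% of the 28835 genes with a count. The 4 were named for a small p, so neither the lack of overlap nor these calls are separate support. *Kcnj15*, of the family of *Kcnj13*, had 1.23 ± 0.935 and 10.1 ± 6.36 CPM (3.03), and *Slc12a7*, of the family of *Slc12a2*, had 70.8 ± 6.10 and 86.5 ± 5.17 CPM (0.29). *Lrrc8c* and *Kcnk5* stood at 1.01 and 0.92. *Slc4a11* stood at 2.06, but at 0.50 without *LC3b-/-* F3, which had 15.8 CPM against 2.86 and 1.83 CPM in *LC3b-/-* F1 and M. *Kcne3*, *Atp1a4*, *Atp2c2* and *Cacna1i* had WT means under 1 CPM. Their summed WT counts were 13, 14, 28 and 39, so their fold changes rest on few reads.

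**Figure D5:**
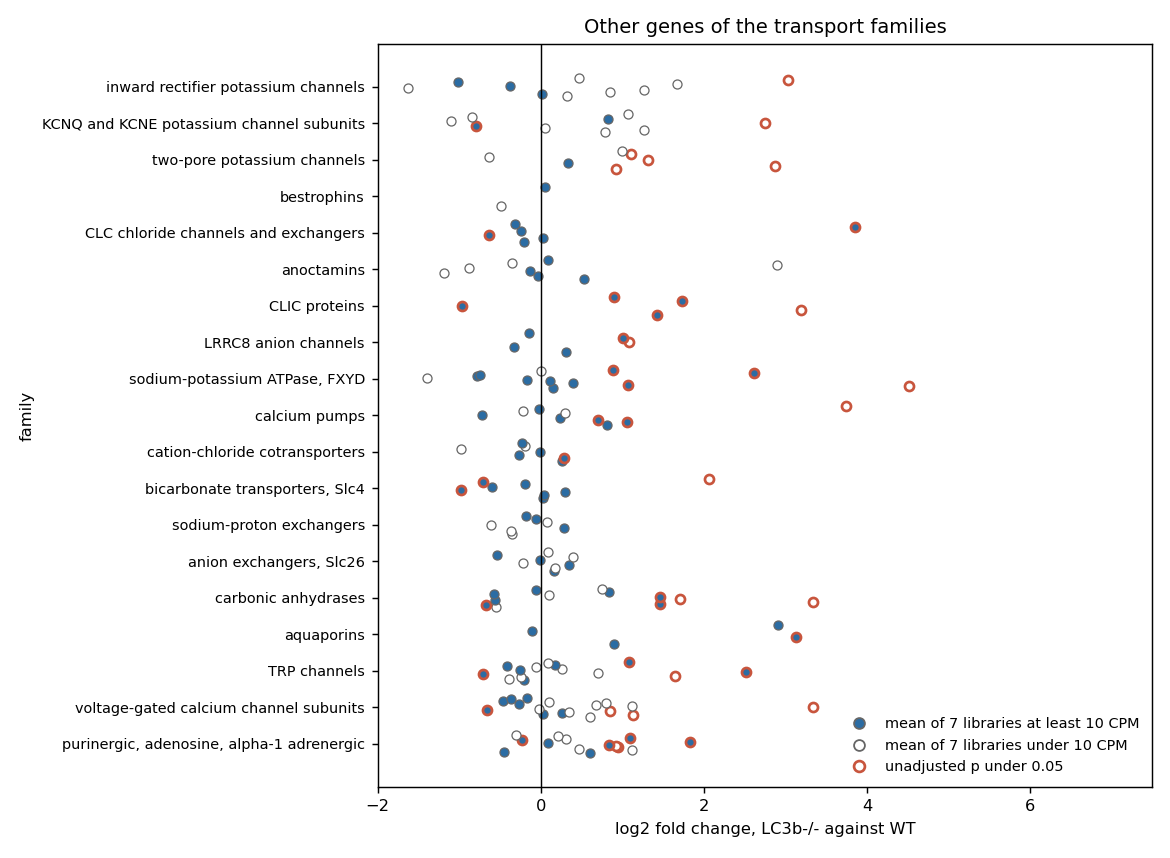
Log2 fold change of *LC3b-/-* against WT for 164 tested genes of 19 transport families without the 9 members (horizontal axis), by family (vertical axis). Filled points have a mean of at least 10 CPM over the 7 libraries and red outlines an unadjusted p under 0.05. The 9 outlined points on the left are all filled, and 19 of the 38 outlined points on the right are.

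Genes with the most similar profile were found among 14919 protein-coding genes, as those with the smallest root mean square difference in centred log2 CPM over the 7 libraries, all of which the 2 profiles share. *Car14* was closest to *Dlgap1* (0.0380), *Atp1b1* to *Nap1l3* (0.0392), *Trpm3* to *Gtf2e1* (0.0572) and *Best1* to *Lrrn4cl* (0.0592). *Clcn2* was closest to *Atp11a* (0.0728), *Kcnj13* to *Pltp* (0.0910) and *Slc12a2* to *Ugdh* (0.106). *Trpm1* was closest to *Rab38* (0.108), a small GTPase of melanosome formation, and *Aqp1* had the most distant match, *Eif4e3* (0.160). These differences were not scaled to a gene's own spread. The SD of log2 CPM over the 7 libraries was largest for *Aqp1* (0.815) and smallest for *Best1* (0.340), so the differences do not rank the genes by closeness relative to spread. Among the members themselves, the most similar pairs were *Atp1b1* with *Trpm3* (0.155) and *Kcnj13* with *Car14* (0.188).

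Sex was tested as an interaction with genotype, with 1 male per group. No member passed the adjusted threshold (edgeR, adjusted p = 0.998 for each). *Aqp1* had the smallest unadjusted p of the members (0.0507), with a difference between males and females in the log2 fold change of 1.77. That difference rests on the 2 males, and the spread was estimated from the females alone. *Aqp1* was 41.1 CPM in the WT male and 164.6 CPM in the *LC3b-/-* male, whereas females of the 2 groups overlapped.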

How the data were processed

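RNA-seq libraries of RPE from 4 WT and 3 *LC3b-/-* mice were analysed (the genotype label reads LCb-/-). The authors quantified reads with Salmon against the GENCODE vM26 transcripts (GRCm39) and used tximeta for gene sums. The deposited values are estimated counts per gene, as whole numbers and unscaled. All 7 columns were used. Depth was 24495952 to 35616134 summed counts per library. Symbols and coordinates came from GENCODE vM39 (51721 of 52740 identifiers matched), and sequences came from RefSeq tables.

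Counts were tested in R 4.3.3 with edgeR 4.0.16 (filterByExpr, TMM, quasi-likelihood, genotype alone, Benjamini-Hochberg over 16990 genes), and calls required a fold of 1.5 or more with an adjusted p below 0.05. The biological coefficient of variation was 0.398. The study compared the 2 groups with DESeq2. Alternatives were DESeq2 1.42.0, limma 3.58.1 voom, other scalings and filters, sex, females only, a replicate block and leaving out each library. Log2 CPM had a prior count of 2. Exact permutation tests were two-sided over 35 allocations. The code was tested on simulated data. The members, families and marker lists were chosen with earlier results of these data known. Named genes were the members, the deleted gene, called family genes, the family gene with the smallest unadjusted p under 0.05 in each direction, markers beside a result, and the nearest profile of each member. A few family genes that this rule names, the called one included, are not reported here. Of 13 marker lists, those not set beside a result are given at the end.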

Additional observations from a re-analysis of the deposited data

Results flagged for a closer look

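The summed level of the 6 melanocyte markers in WT F1 stood apart from the other WT libraries, at 1001 CPM against 267 to 368 CPM. The gap to its nearest neighbour was 0.863 of the range of the group, above Dixon's 95% critical value for 4 libraries. Of 23 such checks, over the members, 1 called family gene and the marker sums, this was the 1 that passed, and chance alone passes about 1 in 20 groups. *Trpm1* was at 284.7 CPM in that library and at 302.2 CPM in WT F3, where the melanocyte sum was lowest at 267 CPM.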

How the results depend on the processing

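Over the 17 alternatives, no member was called except under DESeq2 (3, *Kcnj13*, *Car14* and *Trpm3*), under scaling to the RPE markers (1, *Slc12a2*) and without *LC3b-/-* M (1, *Kcnj13*, where 2.76% of all genes were called), and leaving out single libraries gave 0 to 1. The same count of 0 held without the fold limit. The median log2 fold change of the members was -0.66 to -0.25 with single libraries left out, -0.65 with the replicate block and 0.58 with RPE marker scaling, where the sign turned. Members whose groups did not overlap numbered 4 with RPE marker scaling, 5 in females only and 2 to 5 with single libraries left out (5 without *LC3b-/-* M, 4 without WT F2). The share of all genes without overlap moved too, from 22.3% in the report to 44.1%, 42.5%, 39.2% and 28.6% in these 4 fits.

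Family genes called, 1 of 164 in the report, numbered 28 of 206 with DESeq2, which had no filter on low counts, 2 with voom, 66 with RPE marker scaling (all higher), 2 with sex as a covariate, 2 in females only and 0 with the replicate block. With single libraries left out they numbered 0 to 7 (7 without *LC3b-/-* M, 5 without WT F1 and 0 without each of the others).

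Under RPE marker scaling the sign turned for *Clcn2* (0.58), *Atp1b1* (0.54), *Car14* (0.050), *Trpm1* (1.14) and *Trpm3* (0.27), all read against a shift of 1.04 over all genes. The values of *Slc12a2* and *Trpm1* near 0 also changed sign elsewhere: *Slc12a2* was -0.10 in females only and -0.25 with the replicate block, and *Trpm1* was 0.14 in females only. Without single libraries *Slc12a2* ranged from -0.19 to 0.32 and *Trpm1* from -0.34 to 0.25, with positive *Trpm1* values without WT F1 (0.06), WT F3 (0.10) and *LC3b-/-* M. *Kcnj13* kept its direction under all 17 alternatives (-1.59 to -0.24), as did *Best1* (0.03 to 1.18) and *Aqp1* (0.23 to 1.404). The causes of these changes were not tested.

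F1 and F3 are the only names that both groups share, and deviations of the same-numbered libraries correlated at 0.146 and 0.243, so 2 pairs do not show that the numbers pair the mice. Across all genes tested, the replicate block left 0 called by edgeR. With 3 *LC3b-/-* libraries and a biological coefficient of variation of 0.398, the 95% intervals of 6 members include both no difference and a 1.5-fold change.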

Other observations

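Marker lists that the text has not yet described are given as values, together with the erythrocyte list. Photoreceptor markers (12 genes) summed to 278 to 21742 CPM in WT and 97.7 to 7441 CPM in *LC3b-/-*, with 12 of 12 log2 fold changes negative and 0 with an unadjusted p under 0.05. Muller glia and astrocyte markers summed to 7448 to 10212 and 5604 to 7088 CPM, ciliary epithelium markers to 940 to 1299 and 741 to 891 CPM, and lens markers to 18.5 to 22.5 and 12.0 to 16.0 CPM. Log2 fold changes were positive for 3 of 8 Muller glia markers (the most abundant of the 8, *Clu*, stood at -0.71), for 4 of 7 ciliary epithelium markers and for 0 of 3 tested lens markers. Fibroblast markers summed to 328 to 1371 and 836 to 1836 CPM, macrophage and microglia markers to 386 to 563 and 278 to 512 CPM, erythrocyte markers to 182 to 542 and 216 to 662 CPM, and skeletal muscle markers to 10.4 to 36.3 and 13.4 to 39.3 CPM. Log2 fold changes were positive for 6 of 6 fibroblast, 3 of 9 macrophage and microglia, 4 of 5 tested erythrocyte and 5 of 6 skeletal muscle markers. The ciliary epithelium list includes *Slc4a5*, a bicarbonate transporter of the families above, at 951 ± 172 CPM in WT against 581.5 ± 178 CPM in *LC3b-/-*, a log2 fold change of -0.71. It was the most abundant gene of that list. The Muller glia list includes *Kcnj10* and *Aqp4*, and the ocular surface list includes *Aqp5*, which are family genes too. *Slc4a5* was chosen for its value here, outside the rule for named genes.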
